A study of Mus musculus with 60 samples.

Results

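The genes described are 9 transcription regulators of cortical projection neurons: Fezf2, Bcl11b, Tbr1, Sox5, Tle4, Cux1, Cux2, Rorb and Neurod6. They were chosen by symbol, as the array rows to which GEO's platform annotation gives one of these symbols and no other, with the brightest row kept for a gene. All 9 were found, each with 1 row, among 19938 genes on 21789 rows (transcript clusters) with 1 symbol.

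The signals are those of 60 Affymetrix Mouse Gene 1.0 ST arrays hybridised with RNA of whole fetal brain, in 12 labelled groups of 5. Pregnant mice were given chlorpyrifos oxon (CPO), the toxic oxon form of the insecticide chlorpyrifos, on gestational days 6 to 17, and brains were taken on day 18. The 4 genotypes were wild type (WT), PON1-knockout (KO), tgHuPON1Q192 (Q-tg) and tgHuPON1R192 (R-tg), the latter pair carrying the human gene in its Q192 or R192 form. Each had a group without CPO (dose 0) and a lower and a higher dose: KO dams received 0.50 or 0.75 mg/kg/d, and dams of the other genotypes 0.75 mg/kg/d or 0.85 mg/kg/d. All groups share the B6.129 strain background. Each array holds RNA pooled from the fetal brains of 1 dam, so the dam is the replicate, and dams with outlying brain acetylcholinesterase activity had been dropped before a random draw. The promoter of the transgenes is not given in the sources used here. PON1 is a serum esterase that hydrolyses CPO, and the design asks whether CPO in pregnancy alters expression in the fetal brain and whether PON1 status modifies it. Values are log2 signals; since probes differ in how well they hybridise, levels are compared between arrays for one gene and never between genes.

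Projection neurons are the glutamatergic, long-axon neurons of the cerebral cortex. They are born in sequence from pallial progenitors, deep layers first and upper layers later, and their layer identity is set by transcription factors that activate one fate and repress others. Fezf2 specifies subcerebral (corticospinal) neurons of the deep layers, and Bcl11b (CTIP2) acts downstream of it in the growth of their axons. Tbr1 specifies corticothalamic neurons and represses Fezf2 in them. Sox5 controls the timing and separation of deep layer fates, and Tle4 is a Groucho family corepressor that marks corticothalamic neurons. Cux1 and Cux2 are homeodomain factors of upper layer neurons that shape their dendrites and spines. Rorb, an orphan nuclear receptor, marks the layer that receives thalamic input. Neurod6 is a basic helix-loop-helix factor of newborn and mature pyramidal neurons in all layers. Several of them also work outside the cortex, such as Bcl11b in striatal projection neurons and Rorb in thalamus.

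Promoters are shown for the 3 members that moved most closely together over the arrays (Fezf2, Sox5 and Tbr1) and for Cux2, which held the most motif matches of the members. The sequences are the 250 bases before the annotated start, from RefSeq on GRCm38.p6, written 5′ to 3′ on the strand of the gene. All 9 members matched that table, with 12 starts in all. Capitals mark letters of the motifs searched, on both strands: ACAAT for SOX factors, CAGATG for the NeuroD E-box, ATCGAT for CUX factors, AGGTGTGA for a T-box site and AGGTCA for a ROR site. The Fezf2 promoter lies at chr14:12345866-12346115 on the minus strand, that of Sox5 at chr6:143947107-143947356 on the minus strand, that of Tbr1 at chr2:61804203-61804452 on the plus strand, and the second Cux2 start at chr5:122047826-122048075 on the minus strand.
Fezf2: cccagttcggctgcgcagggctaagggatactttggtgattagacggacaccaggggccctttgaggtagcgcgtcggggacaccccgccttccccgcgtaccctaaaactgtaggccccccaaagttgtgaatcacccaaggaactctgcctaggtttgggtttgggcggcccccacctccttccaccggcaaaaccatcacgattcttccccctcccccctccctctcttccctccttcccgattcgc
Sox5: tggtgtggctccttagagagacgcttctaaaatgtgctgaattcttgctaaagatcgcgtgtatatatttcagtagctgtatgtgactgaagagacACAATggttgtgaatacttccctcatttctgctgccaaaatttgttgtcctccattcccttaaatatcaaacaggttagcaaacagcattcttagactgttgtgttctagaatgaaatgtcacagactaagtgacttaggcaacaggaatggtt
Tbr1: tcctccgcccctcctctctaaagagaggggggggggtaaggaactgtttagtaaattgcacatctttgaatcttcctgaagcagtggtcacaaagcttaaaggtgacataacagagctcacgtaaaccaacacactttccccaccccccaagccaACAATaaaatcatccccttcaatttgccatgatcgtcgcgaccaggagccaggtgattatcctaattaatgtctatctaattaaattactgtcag
Cux2: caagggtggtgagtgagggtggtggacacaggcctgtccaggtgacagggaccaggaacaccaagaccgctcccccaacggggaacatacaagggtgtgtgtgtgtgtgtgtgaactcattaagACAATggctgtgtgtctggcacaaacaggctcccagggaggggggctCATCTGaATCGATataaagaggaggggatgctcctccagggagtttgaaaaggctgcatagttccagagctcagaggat

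The SOX letters occurred in 6 of the 12 member promoters, 1 each of Cux1, Cux2, Rorb, Sox5, Tbr1 and Tle4, and in 27.7% of 32851 promoters of the same length. The NeuroD E-box and the CUX letters each occurred in 1 member promoter, that of Cux2 shown above, against 14.4% and 0.7% of all promoters. They lie next to each other there without overlap. The T-box letters (1.1% of all promoters) and the ROR letters (14%) were in none of the 12 windows. No letters were matched in the Fezf2 window, which is richer in G and C (61.2%) than those of Sox5 (39.6%) and Tbr1 (45.2%), the median of all promoters being 52.4%. A match describes the sequence and shows no binding.

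Arrays were alike, with pairwise correlations from 0.9865 to 0.9984 and medians from 7.38 to 7.47. The pan-neuronal list, which checks the labelled tissue, had all 10 genes above the dim level of 6.54 (the 95th percentile of 1035 olfactory receptor rows, genes not expected in brain). The targeted gene went against the label on 10 arrays: Pon1 was high (at least 9.72) on 5 of the 15 labelled KO and low (at most 5.67) on 5 of the 45 labelled otherwise. In what follows a group is therefore the set of libraries labelled so. Most slopes on Hoxa5 and the group differences named in the text are given without these arrays as well.

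All 9 members lay above the dim level on every array, with SDs from 0.06 to 0.16 log2 units. Among the deep layer genes, Fezf2 had a mean of 9.53 ± 0.16 (SD, n = 60), a lowest value of 9.25 and a highest of 9.89, and 84.4% of all rows had a smaller SD. Bcl11b had a mean of 9.47 ± 0.10 (n = 60) between 9.28 and 9.81. Tbr1 had a mean of 10.21 ± 0.10 (n = 60) between 9.98 and 10.40. Fezf2 was thus the most variable of the members, and Bcl11b and Tbr1 were close to the middle of all rows, 44.4% and 40.3% of which had a smaller SD.

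Sox5 had a mean of 9.45 ± 0.10 (SD, n = 60) and a range of 9.21 to 9.70, and Tle4 a mean of 9.67 ± 0.08 (n = 60) and a range of 9.46 to 9.89. Of the upper layer genes, Cux1 had a mean of 9.48 ± 0.06 (n = 60) between 9.35 and 9.66. Cux2 had a mean of 8.58 ± 0.08 (n = 60) between 8.39 and 8.75. Both were among the steadier genes: 4.64% of all rows had a smaller SD than Cux1, and 20.8% a smaller one than Cux2. Rorb had a mean of 8.81 ± 0.10 (n = 60) between 8.62 and 9.18, and Neurod6 a mean of 10.63 ± 0.13 (n = 60) between 10.22 and 10.92. A smaller SD than that of Neurod6 was found in 65.2% of all rows.

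Some arrays held the extreme value of more than 1 member, and the remaining extremes each fell on a different array. KO 0.50 replicate 4 was the highest array for Bcl11b (9.81), Cux2 (8.75) and Sox5 (9.70), and R-tg 0.85 replicate 5 was the highest for Tbr1 (10.40) and Tle4 (9.89). WT 0.85 replicate 1 was the lowest for Tbr1 (9.98) and Sox5 (9.21), and Q-tg 0.85 replicate 4 was the lowest for Tle4 (9.46) and Neurod6 (10.22). Highest and lowest arrays thus both occurred at 0.85 mg/kg/d. Ordered by group mean, Fezf2 ran from the group labelled WT 0.85 to the one labelled KO 0.50, a span of 0.25, and Tle4 from Q-tg 0.85 to R-tg 0.85, a span of 0.10. The group labelled KO 0.50 had the highest mean of 7 members, all but Rorb and Tle4. The F test over the groups, given further on, called none of the members, so neighbours in these orders were not separated beyond the spread between dams.

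**Figure D1:**
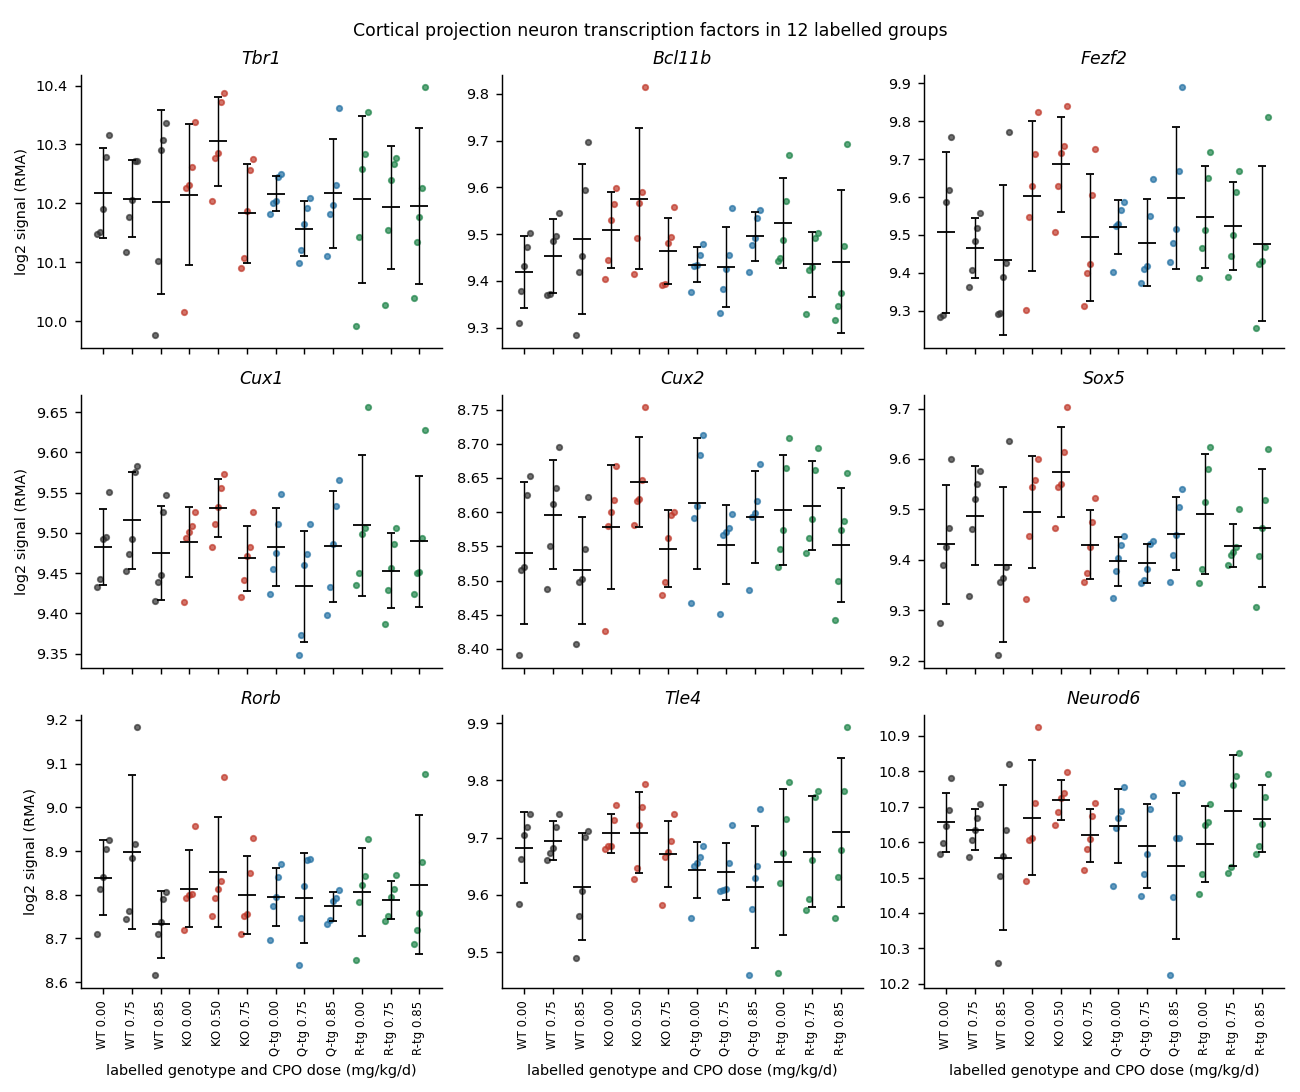
Log2 signal of each of the 9 members (vertical axes) on all 60 arrays, by labelled group (horizontal axis), 1 point per array, coloured by labelled genotype; bars are the mean and SD of a group (n = 5). Each dose group overlaps the dose 0 group of its genotype for every member, and the mean of KO 0.50 is the highest in 7 panels.

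The members tended to vary together over the arrays, Fezf2, Sox5 and Tbr1 most closely. Of the 36 pairs of members, 35 correlated above 0 and 19 at 0.5 or more, a value reached by 7.6% of all pairs of the 15611 rows above the dim level. The median Pearson r over the pairs was 0.529, against 0.105 for all such row pairs, of which 94.2% lay below the member median. With group means subtracted the median was 0.499, so the relation was nearly as strong within the labelled groups. All pairs share the same arrays and the same normalization, and in bulk tissue a smaller share of a cell type and less RNA per cell cannot be told apart.

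Fezf2 and Sox5 were the closest pair, with r = 0.772 and Spearman rho = 0.773 over 60 arrays (permutation p = 1e-05 for both, the smallest that 100000 resamples can give). Tbr1 followed with r = 0.740 to Fezf2 (rho = 0.740) and r = 0.740 to Sox5 (rho = 0.723), with the same permutation p. The 3 lowest of the 36 pairs all held Neurod6 or Rorb. Bcl11b and Neurod6 had r = -0.043 (rho = -0.044, permutation p = 0.746 for r), Rorb and Neurod6 r = 0.187 (rho = 0.204, permutation p = 0.151), and Fezf2 and Rorb r = 0.196 (rho = 0.201, permutation p = 0.135). The upper layer paralogs Cux1 and Cux2 correlated at r = 0.554. Seen by gene, the median r to the other 8 members was 0.640 for Fezf2, 0.637 for Sox5, 0.588 for Tbr1, 0.552 for Bcl11b, 0.547 for Tle4, 0.545 for Cux1 and 0.509 for Cux2. Neurod6 (0.345) and Rorb (0.269) stood lowest in that order; the members' medians were not tested against each other.

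**Figure D2:**
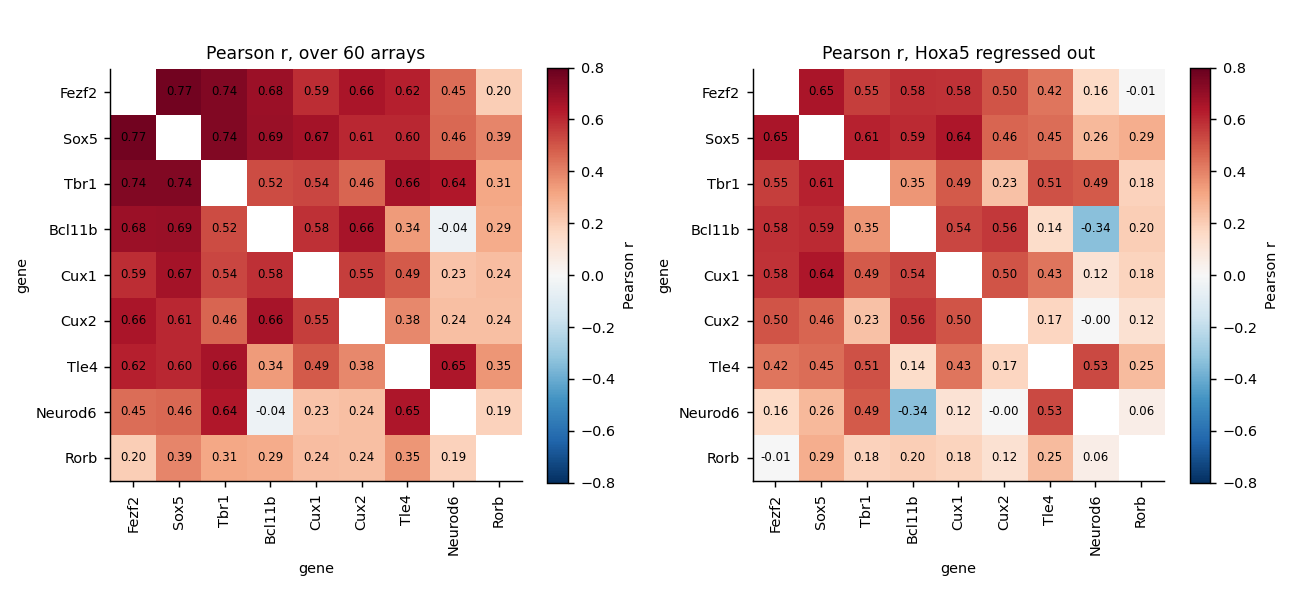
Pearson r of each pair of members (colour and printed value, genes on both axes), over the 60 arrays in the left panel and with Hoxa5 regressed out in the right one. Fezf2, Sox5 and Tbr1 form the darkest block (0.740 to 0.772) on the left, and 33 of 36 pairs stay above 0 on the right.

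The genes whose pattern over the 60 arrays was most like that of a member were taken from 13461 genes above the dim level. For Fezf2 they were Lhx2 (r = 0.865), Rlbp1 (0.864) and Scnm1 (0.834), and for Sox5 they were Nckap5 (0.808), Smarca4 (0.803) and Lhx2 (0.801). Lhx2 is a LIM homeodomain factor of the cortical primordium and Smarca4 the BRG1 ATPase of chromatin remodelling. Tbr1 was closest to Mpped1 (0.788), Zbtb18 (0.771) and Tiam2 (0.770). Zbtb18 is a zinc finger repressor needed in cortical neurogenesis. Bcl11b was closest to Robo1 (0.835), a receptor for Slit axon guidance cues, Ubap2 (0.827) and Ccdc88c (0.825). Tle4 was closest to Nfyb (0.866), Srbd1 (0.836) and Odr4 (0.818).

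Cux1 was closest to Mprip (0.810), Gmeb2 (0.797) and Ampd2 (0.793), and Cux2 to Chd3 (0.737), Palm (0.705) and Arhgef25 (0.697). Chd3 is a helicase of the NuRD complex. Rorb was closest to Hecw1 (0.800), Atp8a1 (0.757) and Klhl28 (0.739), none of which recurred in another member's list. Neurod6 was closest to Nfib (0.768), a nuclear factor of cortical differentiation, Hivep2 (0.71) and Tiam2 (0.701), which it shared with Tbr1. Over all 9 members the highest median r belonged to Efnb2 (0.688), Dhx8 (0.678), Chd3 (0.672), Smarca4 (0.660) and Rlbp1 (0.659). The lowest belonged to Hoxa4 (-0.595), Hoxb3 (-0.577), Sncg (-0.575), AW551984 (-0.565) and Pax8 (-0.554), of which Hoxa4 and Hoxb3 are patterning genes of the hindbrain and spinal cord.

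Hoxa5, a homeobox gene of the caudal hindbrain and spinal cord and not of the cortex, served as a measure of how much caudal tissue a pool held. Its level ran from 5.78 to 8.28 with a median of 7.12, a range of 2.51 log2 units, and the widest step between neighbouring arrays was 0.15, so the arrays formed no separate clusters. Hoxb5, which lies on chromosome 11 while Hoxa5, Sox5, Neurod6 and Pon1 lie on chromosome 6, followed it with r = 0.937 (rho = 0.945, permutation p = 1e-05 for both). On the 5 arrays with least Hoxa5, Fezf2 was at 9.56, 9.60, 9.84, 9.89 and 9.61. On the 5 with most Hoxa5, Fezf2 was at 9.36, 9.29, 9.31, 9.28 and 9.39, all below the former. Tbr1, Cux2, Sox5, Tle4 and Neurod6 were parted in the same way. Bcl11b (9.43 to 9.81 against 9.37 to 9.45) and Cux1 (9.43 to 9.57 against 9.42 to 9.49) overlapped. So did Rorb (8.73 to 9.18 against 8.75 to 8.91). The share of all rows parted so was not counted. Hoxa5 on the 5 arrays with least of it was at 5.78 to 5.96, below the dim level of 6.54. Differences in Hoxa5 at that end are therefore close to background and grade the caudal share poorly.

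In a limma fit with the 12 groups as terms, the slope of every member on Hoxa5 was below 0, and 7 of the 9 members fell with rising Hoxa5 at an adjusted p under 0.05. Of all 21788 other rows, 3.89% were called, 2.59% lower with more Hoxa5 and 1.3% higher. The median slope of the members was -0.071 log2 units per log2 unit of Hoxa5, against -0.006 over all rows. The dependence was steepest for Fezf2, with a slope of -0.162 (SE 0.0227, 95% interval -0.21 to -0.12, adjusted p = 1.994e-06, limma), so that over the whole Hoxa5 range the fitted Fezf2 level fell by 0.407. Among the other deep layer genes, Tbr1 had a slope of -0.0879 (SE 0.0170, adjusted p = 0.000878, limma) and Sox5 one of -0.0843 (SE 0.0163, adjusted p = 0.000878). Tle4 had a slope of -0.0714 (SE 0.0144, adjusted p = 0.001562) and Bcl11b one of -0.0659 (SE 0.0187, adjusted p = 0.0316). All 5 deep layer genes were thus called, Bcl11b with the least margin.

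Neurod6, the gene of all pyramidal neurons, fell with a slope of -0.0908 (SE 0.0231, limma adjusted p = 0.01431). The upper layer genes Cux2 and Cux1 had the shallowest slopes in this fit. Cux2 had a slope of -0.0505 (SE 0.0151, limma adjusted p = 0.04433), and Cux1 one of -0.0241 (SE 0.0128, adjusted p = 0.3238), whose 95% interval ran from -0.050 to 0.0017. Rorb had a slope of -0.0525 (SE 0.0201, adjusted p = 0.1332) with an interval of -0.093 to -0.012. Differences between the slopes of members were not tested. The call of Cux2 was lost in 25 of the 60 fits that left out 1 array, and that of Bcl11b in 5, the highest adjusted p being 0.09696 and 0.09602, both without WT 0.85 replicate 5.

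The 10 arrays with Pon1 against the label weighed on this count. Without them 2 members were called, Fezf2 (slope -0.125, SE 0.0235, adjusted p = 0.001775, limma) and Tle4 (slope -0.0745, SE 0.0175, adjusted p = 0.0235), while 143 rows in all were called, against 848 with them. Tbr1 then had a slope of -0.0759 (adjusted p = 0.06515, limma) and Sox5 one of -0.0669 (adjusted p = 0.07509). Bcl11b and Neurod6 were not called then either, and their slopes in that fit are not given here. Rorb, at -0.0770 (SE 0.0240, adjusted p = 0.1426), was there close to Tbr1 and Tle4, Cux2 and Cux1 were at -0.0394 and -0.0113, and all 9 slopes kept their sign. With the Pon1 level as a covariate in all 60 arrays, a setting added after the data had been seen, 4 members were called, and Bcl11b (limma adjusted p = 0.1961), Cux2 (0.324) and Neurod6 (0.1008) were not. The count over all rows in that fit is not given here. The low Pon1 arrays also held less Hoxa5, at 5.78 to 7.15 with a median of 6.44 against 5.78 to 8.28 with a median of 7.27 on the high Pon1 arrays. Fezf2 there was at 9.51 to 9.89 with a median of 9.72, against 9.25 to 9.81 with a median of 9.44. On the 5 arrays labelled WT, Q-tg or R-tg with low Pon1, Fezf2 was at 9.59, 9.89, 9.67, 9.76 and 9.77, and on the 5 labelled KO with high Pon1 at 9.30, 9.55, 9.31, 9.42 and 9.40. The former all lay above the latter. Hoxa5 was at 6.37, 5.94, 6.59, 6.87 and 6.09 on the former arrays. It was at 7.37, 6.95, 8.22, 7.13 and 7.67 on the latter, so Hoxa5 parted them as well. How many of all rows part these arrays was not counted. These sets of arrays were formed from a measured level, so they are described and not tested.

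**Figure D3:**
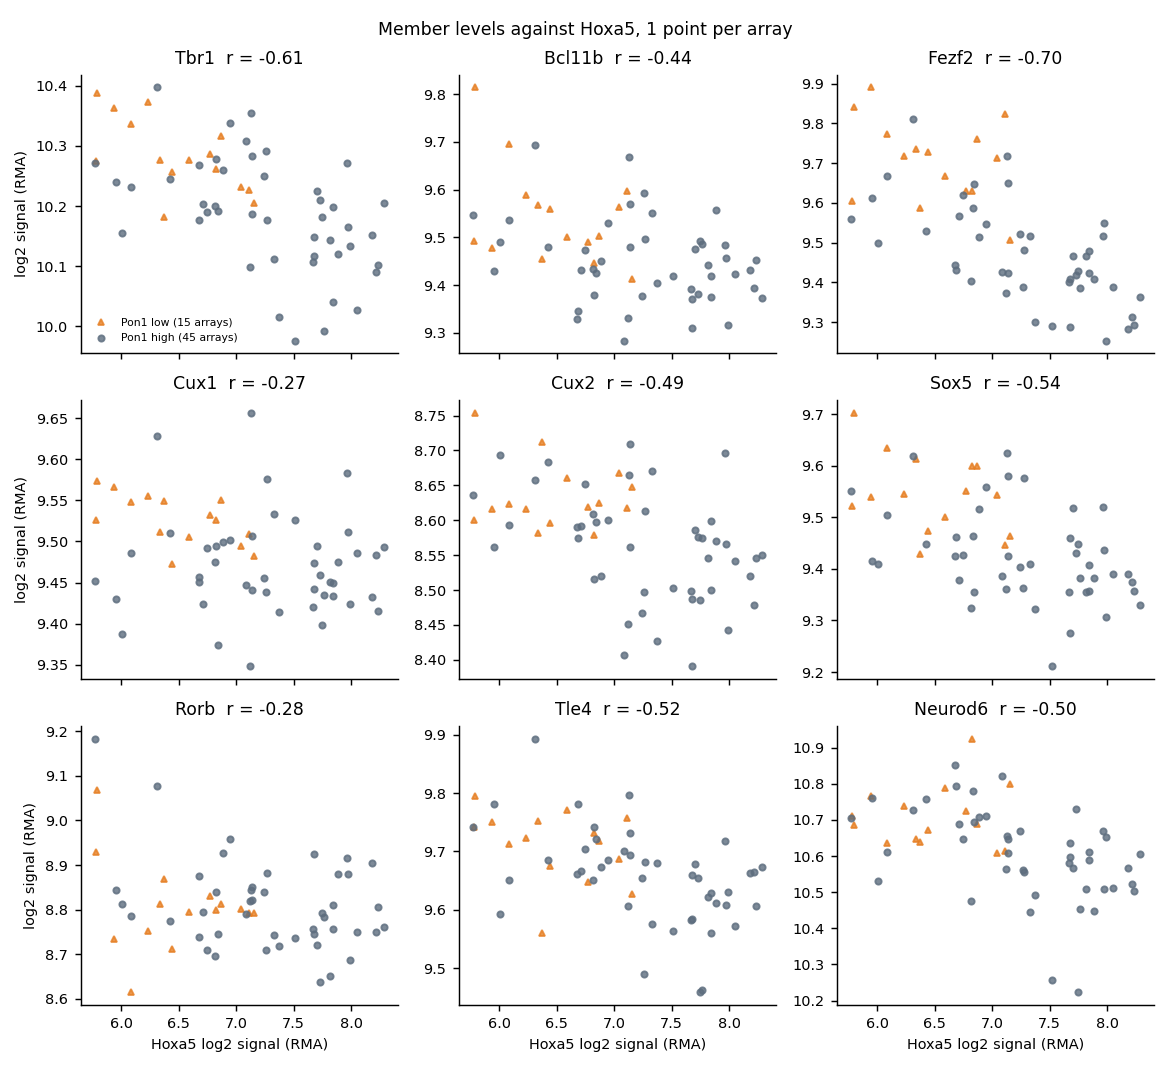
Log2 signal of each member (vertical axes) against that of Hoxa5 (horizontal axes) on the 60 arrays, with Pearson r above each panel; triangles are the 15 arrays with low Pon1 and circles the 45 with high Pon1. Fezf2 falls as Hoxa5 rises (r = -0.704), and the triangles lie in the upper left of its panel, while the points of Cux1 (-0.270) and Rorb (-0.283) scatter widely.

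Plain correlations over the 60 arrays, computed for the 9 members, had the same signs. Fezf2 had r = -0.704 and rho = -0.714 with Hoxa5, Tbr1 r = -0.613 and rho = -0.621, Sox5 r = -0.542 and rho = -0.538, and Tle4 r = -0.519 and rho = -0.554, each with a permutation p of 1e-05. Neurod6 had r = -0.496 (rho = -0.584), Cux2 r = -0.493 (rho = -0.523) and Bcl11b r = -0.440 (rho = -0.400), with permutation p-values for r of 6e-05, 6e-05 and 0.00033. Cux1 had r = -0.270 (rho = -0.300, permutation p = 0.0378 and 0.0201). Without the 2 arrays farthest from the Hoxa5 median, Fezf2 had r = -0.729, Tbr1 -0.613, Sox5 -0.527, Tle4 -0.499, Neurod6 -0.490, Cux2 -0.494, Bcl11b -0.439 and Cux1 -0.284. The plain r of Rorb depended in part on those arrays: it was -0.283 with them (permutation p = 0.0282, and rho = -0.175 with permutation p = 0.180) and -0.155 without them. With group means subtracted, the r of Rorb over all 60 arrays was -0.355.

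Within the 45 arrays with high Pon1 and the 15 with low Pon1, taken apart, the correlations with Hoxa5 were mostly smaller. In the 15, the median Hoxa5 level of 6.44 lay below the dim level of 6.54. Fezf2 had r = -0.630 in the 45 and -0.338 in the 15, and Tbr1 had -0.491 and -0.624. Sox5 had -0.382 and -0.402, Tle4 -0.469 and -0.334, and Bcl11b -0.273 and -0.432. The relation was thus weaker in the 45 arrays than in the 15 for Tbr1 and Bcl11b, and the reverse for Fezf2 and Tle4, with no test of the difference. Neurod6 had -0.465 in the 45 and 0.084 in the 15, where its sign turned, and Cux2 had -0.398 and -0.149. Cux1 had -0.030 and -0.587, and Rorb -0.351 and -0.237. With Hoxa5 taken out by regression, the median r over the 36 member pairs went from 0.529 to 0.426 and 33 pairs stayed above 0. Fezf2 and Sox5 then had 0.653, Tbr1 and Sox5 0.615, and Tbr1 and Fezf2 0.551.

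Other genes of the same tissue were read from 20 marker lists, in which 176 of 193 genes were measured; the counts are of genes called against Hoxa5 in the same fit. Of the deep layer partners, 5 of 12 fell and none rose, the steepest being Zbtb18 (slope -0.0926), Crym (-0.0802), Nr4a2 (-0.0708) and Foxp1 (-0.0559). Of the upper layer partners, 3 of 8 fell, namely Pou3f2 (-0.0833), Mef2c (-0.0704) and Plxnd1 (-0.0656). Of pallial progenitors and new neurons, 4 of 12 fell: the homeobox genes Emx2 (-0.12) and Lhx2 (-0.0898) and the proneural factors Neurog2 (-0.11) and Neurod2 (-0.0746). Pax6 (0.0678, limma adjusted p = 0.05252) and Neurod1 (0.0681, adjusted p = 0.05605) of the same list went the other way and were just short of a call. The median slopes of these lists were -0.032, -0.049 and -0.044, beside -0.071 for the members. Six3 (-0.0627) was the 1 gene called of 5 telencephalic patterning genes.

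Neurons of other forebrain regions were mixed. Of GABA neuron genes 3 of 11 fell, namely Dlx2 (-0.0944), Dlx1 (-0.0813) and Lhx6 (-0.0744). Of striatal genes 3 of 10 fell, among them Ikzf1 (-0.0784) and Drd1 (-0.0757), while Penk (0.145) and Ebf1 (0.104) rose. Of thalamic genes 3 of 7 fell and 2 rose, with Prox1 at -0.102 and Rora at 0.0553. Of Cajal-Retzius genes, Lhx1 (0.087) rose and the other 4 were not called. Penk, Ebf1 and Lhx1 are also used in brainstem or spinal cord.

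The caudal markers that were called moved the other way from the members. Of hindbrain and spinal cord genes 12 of 20 rose and none fell, with the glycine transporter Slc6a5 at 0.682, Hoxb5 at 0.531, Hoxa2 at 0.372 and Hoxb3 at 0.339; 10 of the list's measured genes were dim. Of midbrain and cerebellum genes 4 of 10 rose, namely Pax2 (0.208), Atoh1 (0.163), Cbln1 (0.104) and Zic1 (0.0881). Gata3 (-0.0646), Pax7 (-0.0239), En1 (-0.0232) and Tal1 (-0.0225) of that list had slopes below 0 and were not called. The rest of the list had slopes above 0 and were not called either. Of pan-neuronal genes the neurofilaments Nefm (0.210) and Nefl (0.143) rose and the other 8 were not called.

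Other cell types also moved with Hoxa5, and their part in the members' slopes was not tested. Of astrocyte and radial glia genes 3 of 8 rose (Aqp4 at 0.238, Aldoc at 0.128, Slc1a3 at 0.0554), and the list's mean level ran from 9.97 to 10.28 over the arrays. Of choroid plexus genes 4 of 7 rose (Kcnj13 at 0.102, Clic6 at 0.0762, Sostdc1 at 0.0750, Ttr at 0.0683), and the mean level of that list ran from 8.06 to 8.52. No gene was called among 5 oligodendrocyte, 6 microglia, 9 vessel, 9 pituitary, 9 muscle, 7 cartilage and bone, and 5 erythroid genes. Pituitary genes, 4 of 9 of them dim, had a list mean of 6.01 to 7.04 with r = -0.213 to Hoxa5.

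**Figure D4:**
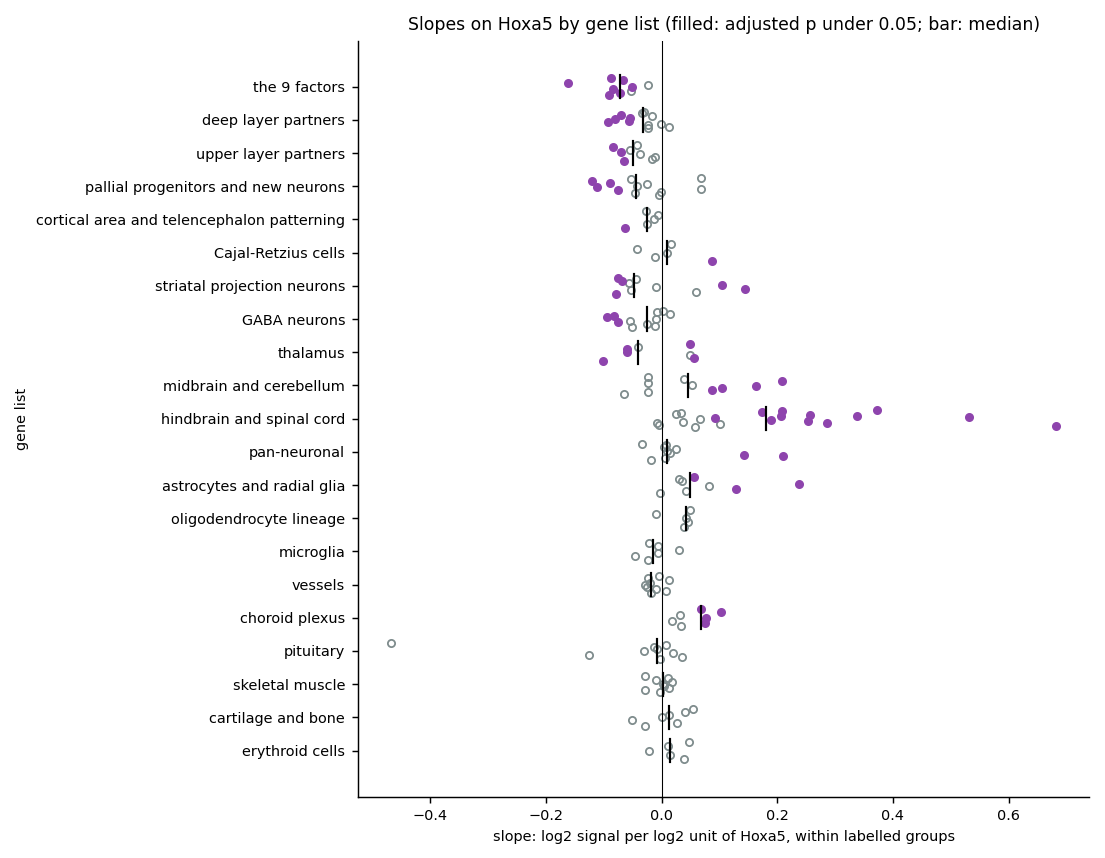
Slope on Hoxa5 (horizontal axis, log2 units per log2 unit) of each measured gene of the members and the 20 lists (rows), with called genes filled and the median of each list marked. All 9 members lie below 0 (median -0.071); of the 20 hindbrain and spinal cord genes (median 0.181) the 12 called ones lie above 0, and Hoxc8 and Hoxd8 just below it.

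The 12 labelled groups were compared next. The moderated F test called 0 of the 9 members and 0% of the 21789 rows. The smallest member p was that of Sox5 (F = 1.55, unadjusted p = 0.1414, adjusted p = 0.95, limma), followed by Bcl11b (F = 1.09, unadjusted p = 0.3848), and 4.84% of all rows had an unadjusted p under 0.05. No member had one. The test that the response to CPO 0.75 differs between the 4 labelled genotypes likewise called 0 members and 0% of rows (limma). The smallest member p there was that of Cux1 (unadjusted p = 0.3941, adjusted p = 0.9285, limma), with 6% of rows at an unadjusted p under 0.05.

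No difference of a member between a CPO dose and dose 0 passed the test. In each of the 8 comparisons of a dose with dose 0, limma called 0 of 9 members, 0% of all rows were called, and 0 members had an unadjusted p under 0.05. The 72 log2 differences ran from -0.11 to 0.09 with SE from 0.04 to 0.10. Their separate 95% intervals, on the arrays as labelled, lay between -0.30 and 0.28, the farthest end being a 1.23-fold change. Each interval holds for its own comparison, and together they are no joint bound over the members. In 99 member comparisons, those between genotypes included, 0 had groups that did not overlap. The share over all rows was not counted, so this is not read as a trait of the members. The 2 doses of a genotype share their dose 0 arrays.

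In WT at 0.75 mg/kg/d, 6 members were higher and 3 lower than at dose 0, with a median difference of 0.033, and 2216 rows had an unadjusted p under 0.05. Cux2, with the smallest p of the members, was at 8.64, 8.61, 8.70, 8.55 and 8.49 under CPO and at 8.65, 8.63, 8.52, 8.39 and 8.52 without it. The sets overlap (difference 0.055, SE 0.051, limma adjusted p = 0.6828). The Cux2 difference ran from 0.018 (without WT 0 replicate 4) to 0.083 (without WT 0 replicate 1) when 1 array was left out, and was 0.077 without the arrays whose Pon1 goes against the label. In WT at 0.85 mg/kg/d, 8 of 9 members were lower, with a median of -0.040, beside a median of 0.0089 over all rows. Rorb was at 8.74, 8.79, 8.81, 8.71 and 8.62 against 8.71, 8.81, 8.84, 8.93 and 8.91 at dose 0. The 3 highest values are from dose 0 and the lowest from CPO, but the groups overlap (difference -0.11, SE 0.065, limma adjusted p = 0.9999; -0.084 without the arrays whose Pon1 goes against the label).

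In the libraries labelled KO, the members lay on opposite sides of dose 0 at the 2 doses. Their signs are not independent, since the members vary together on the same arrays (median pair r = 0.529). At 0.50 mg/kg/d all 9 differences were above 0, with a median of 0.066 where 50.2% of all rows were above 0. Tbr1 was at 10.28, 10.37, 10.20, 10.39 and 10.29 there and at 10.02, 10.34, 10.26, 10.23 and 10.23 at dose 0 (difference 0.09, SE 0.064, limma adjusted p = 1). At 0.75 mg/kg/d all 9 differences were below 0, with a median of -0.037 where 37% of all rows were above 0. Fezf2 was at 9.31, 9.73, 9.60, 9.42 and 9.40 there, at 9.73, 9.72, 9.51, 9.84 and 9.63 at 0.50 mg/kg/d and at 9.30, 9.55, 9.63, 9.71 and 9.82 at dose 0. The dose 0 set spans all values of both doses but 9.84 (0.75 against 0: difference -0.11, SE 0.097, limma adjusted p = 0.9993). Low Pon1 was found on all 5 arrays labelled KO 0.50, on 3 of those labelled KO 0 and on 2 of those labelled KO 0.75. Without the 10 arrays whose Pon1 goes against the label, the Fezf2 difference at 0.75 mg/kg/d was -0.057 (SE 0.112, limma adjusted p = 0.9999) and the Tbr1 difference at 0.50 mg/kg/d 0.066 (SE 0.069, adjusted p = 1). When 1 array was left out, the former ran from -0.18 (without KO 0 replicate 1) to -0.054 (without KO 0 replicate 5), and the latter from 0.041 (without KO 0 replicate 1) to 0.12 (without KO 0 replicate 2).

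In Q-tg at 0.75 mg/kg/d all 9 differences were below 0 with a median of -0.042, and at 0.85 mg/kg/d 5 were above 0 and the median was 0. Neurod6 at 0.85 mg/kg/d was at 10.77, 10.61, 10.45, 10.22 and 10.61, against 10.69, 10.76, 10.64, 10.67 and 10.48 at dose 0. The difference was -0.11 (SE 0.080, limma adjusted p = 0.9995), and it was -0.037 without the lowest array, at 10.22. Without the arrays whose Pon1 goes against the label, one of which was the highest at 10.77, the difference was -0.17 (SE 0.090, limma adjusted p = 0.9977). In R-tg, Bcl11b was lower at both doses: it was at 9.42, 9.33, 9.50, 9.49 and 9.43 at 0.75 mg/kg/d, at 9.35, 9.47, 9.37, 9.32 and 9.69 at 0.85 mg/kg/d and at 9.67, 9.57, 9.44, 9.49 and 9.45 at dose 0. The groups overlap (differences -0.088 and -0.082, SE 0.063, limma adjusted p = 0.8985 and 0.9865), and 3 of 9 members were higher at each dose. When 1 array was left out the Bcl11b difference ran from -0.11 to -0.052 at 0.75 mg/kg/d and from -0.15 (without R-tg 0.85 replicate 5) to -0.046 at 0.85 mg/kg/d, the smallest at both doses without R-tg 0 replicate 1. Without the arrays whose Pon1 goes against the label the differences were -0.105 and -0.082.

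Without CPO, limma called 0 members and 0% of rows in KO, Q-tg or R-tg against WT, and 0 members had an unadjusted p under 0.05. Bcl11b gave the smallest p of all 99 member comparisons, in R-tg against WT (difference 0.10, SE 0.063, unadjusted p = 0.1063, adjusted p = 0.9996), where WT arrays were at 9.47, 9.50, 9.38, 9.31 and 9.43. In KO against WT, 7 members were higher, with a median of 0.025 beside 0.0179 over all rows. Bcl11b was at 9.40, 9.53, 9.45, 9.56 and 9.60 in the arrays labelled KO (difference 0.089, SE 0.063, limma adjusted p = 0.999). Without the arrays whose Pon1 goes against the label, the Bcl11b difference was 0.14 in KO (SE 0.076, limma adjusted p = 0.8163) and 0.12 in R-tg (SE 0.067, adjusted p = 0.9). In Q-tg against WT, 4 members were higher, with a median of -0.001. Cux2 had the smallest p there (difference 0.072, SE 0.051, limma adjusted p = 0.9999). That difference was 0.068 without the arrays whose Pon1 goes against the label, and 0.034 to 0.11 when 1 array was left out.

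**Figure D5:**
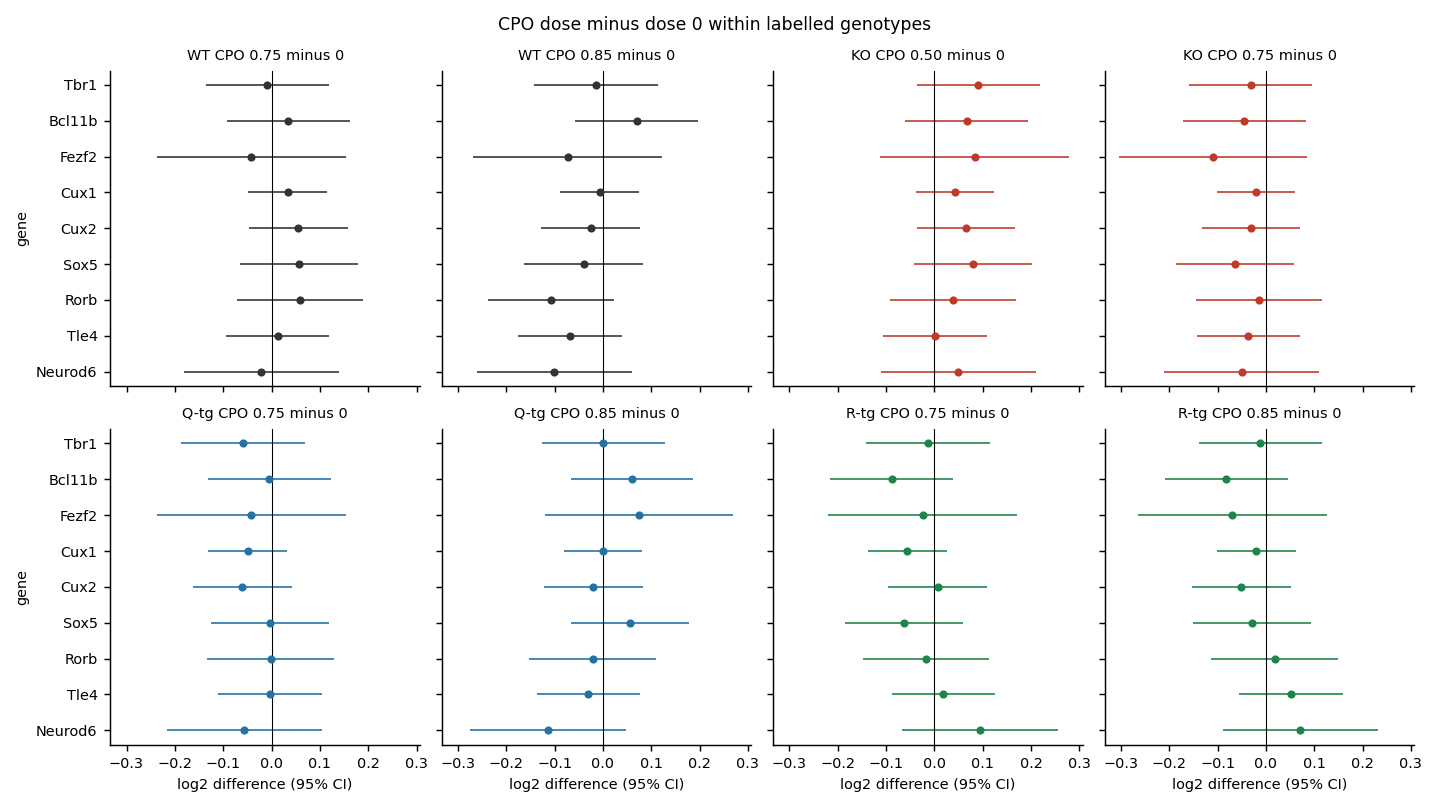
Log2 difference of each member (rows) for CPO against dose 0 within each labelled genotype and dose, with 95% intervals from limma. Every interval includes 0. All 9 points lie above 0 for KO 0.50 and below 0 for KO 0.75 and Q-tg 0.75. The members vary together, so the 9 points of a panel are not separate observations.

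Hoxa5 itself had unequal group means, but limma called none of the differences (smallest adjusted p = 0.8985, in R-tg at 0.75 mg/kg/d). It was at -0.60 (SE 0.42) against dose 0 in KO at 0.50 mg/kg/d and at 0.80 in Q-tg at 0.75 mg/kg/d. With Hoxa5 as a covariate, an alternative added after the data had been seen, the member median in KO at 0.50 mg/kg/d went from 0.066 to 0.027, with 6 of 9 members above 0. In Q-tg at 0.75 mg/kg/d it went from -0.042 to 0.04, with 7 of 9 above 0, so the direction of the members there turned. In R-tg at 0.75 mg/kg/d, where Hoxa5 was at -0.69, it went from -0.017 to -0.073. In Q-tg against WT without CPO, where Hoxa5 was at -0.55, it went from -0.001 to -0.06, with 1 of 9 members above 0 and 4 before. In KO at 0.75 mg/kg/d, where Hoxa5 differed by -0.01, it stayed at -0.037. With the Pon1 level as covariate the median was 0.027 in KO at 0.50 mg/kg/d, -0.024 in KO at 0.75 mg/kg/d and -0.006 in Q-tg at 0.75 mg/kg/d, and for KO against WT it went from 0.025 to -0.015. No gene of the 20 lists was called in any of the 11 comparisons (limma).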

How the data were processed

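RNA of 60 pools of fetal mouse brain (1 dam each, 12 labelled groups of 5) was measured on Affymetrix Mouse Gene 1.0 ST arrays. The authors deposited log2 signals made with RMA in the oligo package under R 2.15.1, per the submitters' processing notes (oligo 1.22.0 per the deposited session record). RMA equalises the distributions of the arrays, so a shift common to all genes cannot be seen. The values were used as deposited. Of 28858 rows, 21789 had 1 platform gene symbol, 1621 several and 5448 none.

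One model with the 12 groups was fitted to the 21789 rows with limma 3.58.1 in R 4.3.3, with moderated, 2-sided tests, Benjamini-Hochberg adjustment over all rows and a threshold of 0.05. Slopes on Hoxa5 came from the same model with the Hoxa5 level added (21788 rows). Correlations over arrays were tested with 100000 permutations, 2-sided. The members, marker lists and tests were chosen with earlier results of these data known. Named are the members, the 3 genes most like each and the 5 most and least like all. Of a list, up to 4 genes by size of slope, those called and some with a slope of the other sign are named. The scripts were tested on simulated data. Alternatives were array weights, a trended and robust prior, dim rows left out, rows without a single symbol added, median centring, a replicate block, the lower quartile of an array as covariate, other caudal measures, and leaving out arrays. The number of arrays limits the precision. No scanner values were used here.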

Additional observations from a re-analysis of the deposited data

Results flagged for a closer look

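In 5 of the 108 sets of 5 arrays (9 members in 12 groups) the highest or lowest array lay apart from the other 4, its gap to the nearest being over 0.71 of the whole range, which chance gives in about 1 of 20 sets. Fezf2 was at 9.77 on WT 0.85 replicate 5, against 9.29 to 9.43 on the others; Pon1 went against the label on this array. Rorb was at 9.07 on KO 0.50 replicate 4, against 8.75 to 8.83, an array that was also the highest of all 60 for Bcl11b, Cux2 and Sox5. Cux1 was at 9.41 on KO 0.00 replicate 1, against 9.49 to 9.53, and Pon1 went against the label there too. Cux2 was at 8.45 on Q-tg 0.75 replicate 1, against 8.57 to 8.60. Tle4 was at 9.56 on Q-tg 0.00 replicate 3, against 9.65 to 9.68, the third of these arrays on which Pon1 went against the label.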

How the results depend on the processing

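In all alternatives run, 0 members were called in any comparison of groups. The 7 members called against Hoxa5 became 2 without the 10 arrays whose Pon1 goes against the label and 4 with Pon1 as covariate (added after seeing the data), 5 with array weights, 6 with all rows or Hoxb5 in place of Hoxa5, 9 with the mean of hindbrain and spinal cord genes, and 5 to 7 when 1 array was left out. The replicate numbers did not pair the samples (deviations of same-numbered arrays correlated at -0.015 on average, against 0.004 for other numbers); with the replicate block 6 members were called, Cux2 having an adjusted p of 0.0552 (limma), and the median r of the member pairs was 0.505. That median was 0.426 with Hoxa5 regressed out and 0.491 to 0.555 when 1 array was left out. The r of Neurod6 with Hoxa5 turned to 0.084 in the 15 arrays with low Pon1. Counts over all rows that left 0 were, with array weights, 39 for WT 0.75, 1 for R-tg 0.85, 38 for the 12 groups and 3 for the response by genotype. Without the 10 arrays they were 29 for KO against WT and 79 for the 12 groups. They were 1 for WT 0.75 among rows above the dim level and 1 for R-tg against WT with the lower quartile as covariate, and 0 to 1 when 1 array was left out for WT 0.75, R-tg against WT and the response by genotype. Rows called against Hoxa5 were 848 in the main fit, 143 without the 10 arrays, 1400 with array weights and 846 with all rows. Totals for the Pon1 covariate, Hoxb5, the hindbrain and spinal cord mean and the replicate block are not given here. The member counts under those settings thus stand without the share of all rows. Rows called ranged from 589 to 1660 when 1 array was left out, with 1660 without WT 0.75 replicate 1. The cause was not tested. A second row for a member could not be tried, since each has 1.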
